A study of Mus musculus with 2 samples.

Results

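The 10 genes described here encode checkpoint and exhaustion receptors of lymphocytes and genes that accompany them: Pdcd1, Lag3, Havcr2, Tigit, Ctla4, Cd160, Cd244a, Tox, Entpd1 and Rgs16. They were taken by symbol from the gene list of the count matrices, where all 10 were found among 32285 genes, and their raw counts were followed in 5 kinds of T and NK cell. Checkpoint receptors sit on the surface of activated lymphocytes and dampen signalling through the antigen receptor or compete for its costimulatory ligands. In tumours, T cells that meet antigen for long periods keep several of these receptors at once, a state known as exhaustion, in which killing and cytokine release decline. The same receptors also appear on recently activated cells, and regulatory T cells and NK cells carry some of them at rest.

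CD45+ leukocytes were sorted from digested tumours of C57BL/6 mice and profiled in droplets with a 10x Genomics 5′ kit, as 1 Ythdf2 KO library and 1 WT library. Ythdf2 encodes a cytoplasmic reader of m6A, a methyl mark on adenosines of mRNA, that speeds the decay of marked transcripts. The sample labels speak of knockout tumours and the series design of conditional knockout mice, so the sources used here do not settle whether the sorted leukocytes themselves carried the deletion. They give neither the tumour line, the age of the mice, the number of animals per library nor the driver of a conditional deletion. Depth was counted in UMIs, molecules told apart by a tag: 134066610 over 16312 barcodes for Ythdf2 KO (median 5617 per barcode) and 168912853 over 20886 barcodes for WT (median 5554). With 1 library per genotype no difference between Ythdf2 KO and WT has a replicate check or a test, and all 95% intervals below cover counting error only. In sums of a cell type, more RNA per cell and more cells with the RNA cannot be told apart without the shares of cells given beside them.

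Cells were gated by the UMIs of lineage genes. The gates held 1390 Ythdf2 KO and 2286 WT NK cells, 232 and 413 gamma-delta T cells, 211 and 234 CD8 T cells, 72 and 121 regulatory T cells, and 48 and 87 conventional CD4 T cells. In all, 1953 Ythdf2 KO and 3141 WT cells entered, and 101 barcode sequences occurred in both libraries. The check of the gates against genes they did not use was uneven. Cd40lg, the CD40 ligand of helper T cells, stood at 40.4 CPM (the gene's UMIs scaled to 1000000 UMIs of the gate) in Ythdf2 KO and 42.0 CPM in WT in the conventional CD4 gate and below 6 CPM in every other gate. Il2ra, Ikzf2 and Tnfrsf4, genes of regulatory T cells, were highest in the regulatory gate among the T cells, but Il2ra still reached 178 CPM in Ythdf2 KO and 279 CPM in WT in the conventional CD4 gate. The gamma-delta gate held Cd163l1 and Il17a, genes of IL-17-producing gamma-delta cells. It also held Ncr1, the NK receptor NKp46, at 224 CPM in Ythdf2 KO and 192 CPM in WT. The NK gate required an Ncr1 UMI, so its 391.8 and 356 CPM are no check. Eomes, an NK gene that no gate used, stood at 105 CPM in Ythdf2 KO and 93.1 CPM in WT in the gamma-delta gate. In the NK gate it stood at 147 and 153 CPM. Trac was seen in 25.4% of Ythdf2 KO and 23.5% of WT gamma-delta cells. Ncr1 was lowest in the CD8 gate, with 34.3 CPM in Ythdf2 KO and 41.3 CPM in WT. Counts of Ythdf2 itself ranged from 46.3 to 69.0 CPM over the 5 gates in Ythdf2 KO and from 51.5 to 66.9 CPM in WT. The deleted part of the gene is not given in the sources used here, so these counts check neither label.

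Of the 10 genes, 8 had an entry in the table of RefSeq promoters (assembly GRCm38.p6). The 250 bases before the start are shown for the 4 of them that were higher in Ythdf2 KO than in WT CD8 T cells beyond counting error, the group of genes on which the comparison of the libraries turns. Sequences run 5′ to 3′ along the gene's own strand, and capitals mark matches, on either strand, to the NFAT core GGAAA, the AP-1 motif TGANTCA or the GC box GGGCGG. The letters AAAGGTCA of the NR4A motif and TCACACC of a T-box motif were searched as well and are in none of the 4.
Pdcd1, chr1:94052554-94052803, minus strand: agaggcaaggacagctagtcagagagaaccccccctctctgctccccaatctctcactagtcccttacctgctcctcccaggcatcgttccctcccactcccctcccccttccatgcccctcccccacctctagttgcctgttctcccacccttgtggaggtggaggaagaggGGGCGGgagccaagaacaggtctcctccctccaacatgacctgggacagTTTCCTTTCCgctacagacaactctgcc
Havcr2, chr11:46454681-46454930, plus strand: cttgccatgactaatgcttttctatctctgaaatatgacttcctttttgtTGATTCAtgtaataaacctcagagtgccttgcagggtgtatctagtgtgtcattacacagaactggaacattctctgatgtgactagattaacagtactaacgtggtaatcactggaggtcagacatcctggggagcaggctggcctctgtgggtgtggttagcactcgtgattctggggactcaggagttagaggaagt
Cd160, chr3:96829352-96829601, minus strand: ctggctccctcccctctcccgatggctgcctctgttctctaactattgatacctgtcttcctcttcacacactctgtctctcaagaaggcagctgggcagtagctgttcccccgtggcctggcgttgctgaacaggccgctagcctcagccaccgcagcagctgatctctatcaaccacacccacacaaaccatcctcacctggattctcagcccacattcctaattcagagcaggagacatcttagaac
Rgs16, chr1:153740103-153740352, plus strand: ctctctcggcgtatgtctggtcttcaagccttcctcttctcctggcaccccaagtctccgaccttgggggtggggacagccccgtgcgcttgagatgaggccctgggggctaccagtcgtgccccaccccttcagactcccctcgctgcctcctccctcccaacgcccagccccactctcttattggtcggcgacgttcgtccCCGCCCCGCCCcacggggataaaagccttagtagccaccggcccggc
The Pdcd1 window held 2 matches to the NFAT core, the letters bound by the factor that calcium signalling brings to the nucleus, and 1 GC box. Of 32851 windows of the same length, 55.6% held the NFAT core and 32.7% a GC box. The single AP-1 match of the Havcr2 window belongs to a motif held by 6.75% of windows, and the Rgs16 window held 2 GC boxes. The NR4A letters occurred in 1.34% of windows and the T-box letters in 3.33%. Matches are letters in a window and do not show that a factor was bound.

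In the mouse annotation of GRCm38, the build of the deposited counts, Pdcd1 lies at chr1:94038305-94052553, Lag3 at chr6:124904361-124911705, Havcr2 at chr11:46454935-46481255, Tigit at chr16:43648867-43664146 and Ctla4 at chr1:60887000-60915832. Cd160 lies at chr3:96798763-96829351, Cd244a at chr1:171559193-171609746, Tox at chr4:6686353-6991557, Entpd1 at chr19:40612366-40741602 and Rgs16 at chr1:153740349-153745468. All 10 are protein-coding. Pdzk1 overlaps Cd160, Ly9 overlaps Cd244a, Gm11802 overlaps Tox and Gm28513 overlaps Rgs16, each from the opposite strand, while AC166063.1 overlaps Entpd1 on the same strand. The sources used here do not say whether counting used the strand, so reads of these pairs may not have been told apart.

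Pdcd1 was highest in CD8 T cells. The gene, which encodes PD-1, the receptor that recruits phosphatases to the antigen receptor, stood at 11.6 CPM in Ythdf2 KO and 7.51 CPM in WT NK cells, 27.4 and 45.5 CPM in gamma-delta T cells, 136 and 97.03 CPM in CD8 T cells, 22.4 and 30.5 CPM in regulatory T cells, and 21.4 and 43.3 CPM in conventional CD4 T cells. CD8 T cells were thus highest in both libraries, and the ranges of the 3 other T cell gates overlapped one another. Across the 10 sums of 5 gates and 2 libraries, with the library as a block, edgeR placed Pdcd1 1.75 log2 units higher in CD8 than in conventional CD4 T cells (Benjamini-Hochberg adjusted p = 0.0017). The call was lost with the limit on genes of other lineages at 0.2% of UMIs in place of 0.5% (edgeR adjusted p = 0.074), with stricter gates (0.056) and without CD4 cells holding Il2ra or Ikzf2 (0.087). It was lower than in CD8 T cells by a log2 fold of -1.56 in gamma-delta T cells (edgeR adjusted p = 7.63e-05) and of -3.48 in NK cells (edgeR adjusted p = 7.05e-11). The 2 libraries that serve as replicates in this fit differ in genotype, and it leaves 4 residual degrees of freedom.

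Havcr2, the gene of TIM-3, had 58.0 CPM in Ythdf2 KO and 43.4 CPM in WT NK cells, 35.0 and 32.0 CPM in gamma-delta T cells, 119 and 87.7 CPM in CD8 T cells, 72.6 and 76.6 CPM in regulatory T cells, and 73.7 and 93.2 CPM in conventional CD4 T cells. It was lower in gamma-delta than in CD8 T cells (log2 fold -1.59, edgeR adjusted p = 8.99e-07) and lower in NK than in CD8 T cells (log2 fold -0.88, edgeR adjusted p = 1.99e-05). CD8 and conventional CD4 T cells were not separated (log2 fold 0.28, edgeR adjusted p = 0.44), with the WT values within each other's counting intervals and the Ythdf2 KO intervals apart (107 to 132 CPM in CD8 T cells, 50.1 to 104.7 CPM in conventional CD4 T cells). Myeloid cells carry this gene too. Macrophages held 89.6 CPM in Ythdf2 KO and 92.7 CPM in WT, and the genes of other lineages made up a median of 0.181% and 0.148% of UMIs in the conventional CD4 gate. The part of macrophage RNA in the CD4 value was not tested.

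Lag3 and Ctla4 were shared between CD8 and CD4 lineages. Lag3, a CD4-like receptor for MHC class II, stood at 55.6 CPM in Ythdf2 KO and 51.3 CPM in WT NK cells, 56.7 and 38.9 CPM in gamma-delta T cells, 206 and 158 CPM in CD8 T cells, 213 and 253 CPM in regulatory T cells, and 121 and 146 CPM in conventional CD4 T cells. Ctla4, which competes with CD28 for its ligands CD80 and CD86, stood at 71.8 CPM in Ythdf2 KO and 82.0 CPM in WT NK cells, 50.5 and 68.8 CPM in gamma-delta T cells, 161 and 176 CPM in CD8 T cells, 277 and 296 CPM in regulatory T cells, and 190.3 and 353 CPM in conventional CD4 T cells. The conventional CD4 value of Ctla4 differs more between the libraries than any other of its values. Gamma-delta T cells were below CD8 T cells for Lag3 (log2 fold -1.94, edgeR adjusted p = 5.56e-08) and for Ctla4 (log2 fold -1.47, edgeR adjusted p = 8.99e-07). NK cells were below them as well, for Lag3 by a log2 fold of -1.61 (edgeR adjusted p = 1.41e-08) and for Ctla4 by -0.98 (edgeR adjusted p = 5.70e-06). Ctla4 was the only gene of the 10 that edgeR called lower in CD8 than in conventional CD4 T cells (log2 fold -0.66, adjusted p = 0.0083), a call lost when CD4 cells with Il2ra or Ikzf2 were left out (log2 fold -0.21, adjusted p = 0.68) and without the library block (adjusted p = 0.079).

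Cd160 was highest in gamma-delta and CD8 T cells, and Cd244a in NK cells. Cd160, a receptor of HVEM, stood at 24.5 CPM in Ythdf2 KO and 20.2 CPM in WT NK cells, 84.5 and 47.3 CPM in gamma-delta T cells, 64.6 and 45.8 CPM in CD8 T cells, 22.4 and 9.74 CPM in regulatory T cells, and 21.4 and 14.4 CPM in conventional CD4 T cells. Cd244a, the SLAM-family receptor 2B4 that binds CD48, stood at 129 CPM in Ythdf2 KO and 120.2 CPM in WT NK cells, 79.3 and 67.8 CPM in gamma-delta T cells, 40.0 and 38.2 CPM in CD8 T cells, 53.4 and 55.8 CPM in regulatory T cells, and 21.4 and 49.9 CPM in conventional CD4 T cells. NK cells were the highest gate for Cd244a in both libraries. Cd244a was higher in NK than in CD8 T cells by 1.82 log2 units (edgeR adjusted p = 5.33e-09) and in gamma-delta than in CD8 T cells by 0.92 (edgeR adjusted p = 0.00084). The second call was lost when T cells with an Ncr1 UMI were left out (log2 fold 0.16, edgeR adjusted p = 0.79). Cd160 was higher in CD8 than in conventional CD4 T cells (log2 fold 1.68, edgeR adjusted p = 0.0015, but 0.082 with the 0.2% limit and 0.055 without the library block) and lower in NK than in CD8 T cells (log2 fold -1.13, edgeR adjusted p = 5.28e-06), while gamma-delta and CD8 T cells were not separated (log2 fold 0.24, edgeR adjusted p = 0.48).

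Rgs16, a GTPase-activating protein that shortens signalling of G protein-coupled receptors, reached 146 CPM in Ythdf2 KO and 201 CPM in WT NK cells, 123 and 127 CPM in gamma-delta T cells, 254 and 177 CPM in CD8 T cells, 41.6 and 83.1 CPM in regulatory T cells, and 21.4 and 57.7 CPM in conventional CD4 T cells. It showed the largest edgeR fold of the 10 genes between CD8 and conventional CD4 T cells (log2 fold 2.38, adjusted p = 5.03e-05). NK and CD8 T cells stood in opposite order in the libraries, with a log2 ratio of -0.80 in Ythdf2 KO and 0.18 in WT. The lower level in gamma-delta than in CD8 T cells (log2 fold -0.79, edgeR adjusted p = 0.019) was not called by DESeq2 (adjusted p = 0.29) or by edgeR without the library block (adjusted p = 0.13).

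Entpd1, the gene of the ATP-degrading enzyme CD39, stood at 33.1 CPM in Ythdf2 KO and 39.5 CPM in WT NK cells, 23.1 and 33.3 CPM in gamma-delta T cells, 54.5 and 57.5 CPM in CD8 T cells, 84.3 and 104.5 CPM in regulatory T cells, and 61.9 and 63.0 CPM in conventional CD4 T cells. Neutrophils held more, 335 CPM in Ythdf2 KO and 302 CPM in WT, and macrophages 96.8 and 121 CPM. The part of myeloid RNA in the lymphocyte values was not tested. Entpd1 was lower than in CD8 T cells in gamma-delta T cells (log2 fold -0.95, edgeR adjusted p = 0.00043) and in NK cells (log2 fold -0.48, edgeR adjusted p = 0.0058, but 0.28 with the 0.2% limit). Tox, the transcription factor needed for the exhausted programme of CD8 T cells, stood at 5.24 CPM in Ythdf2 KO and 4.18 CPM in WT NK cells, 15.6 and 15.1 CPM in gamma-delta T cells, 19.2 and 30.6 CPM in CD8 T cells, 10.7 and 22.1 CPM in regulatory T cells, and 23.8 and 19.7 CPM in conventional CD4 T cells. Its level was lower in NK than in CD8 T cells (log2 fold -2.27, edgeR adjusted p = 3.80e-07). Tigit, which competes with CD226 for CD155, had 7 UMIs in Ythdf2 KO and 23 UMIs in WT regulatory T cells, or 7.47 and 14.9 CPM, and at most 7.14 CPM in the other gates. No comparison of gates was called for it.

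**Figure D1:**
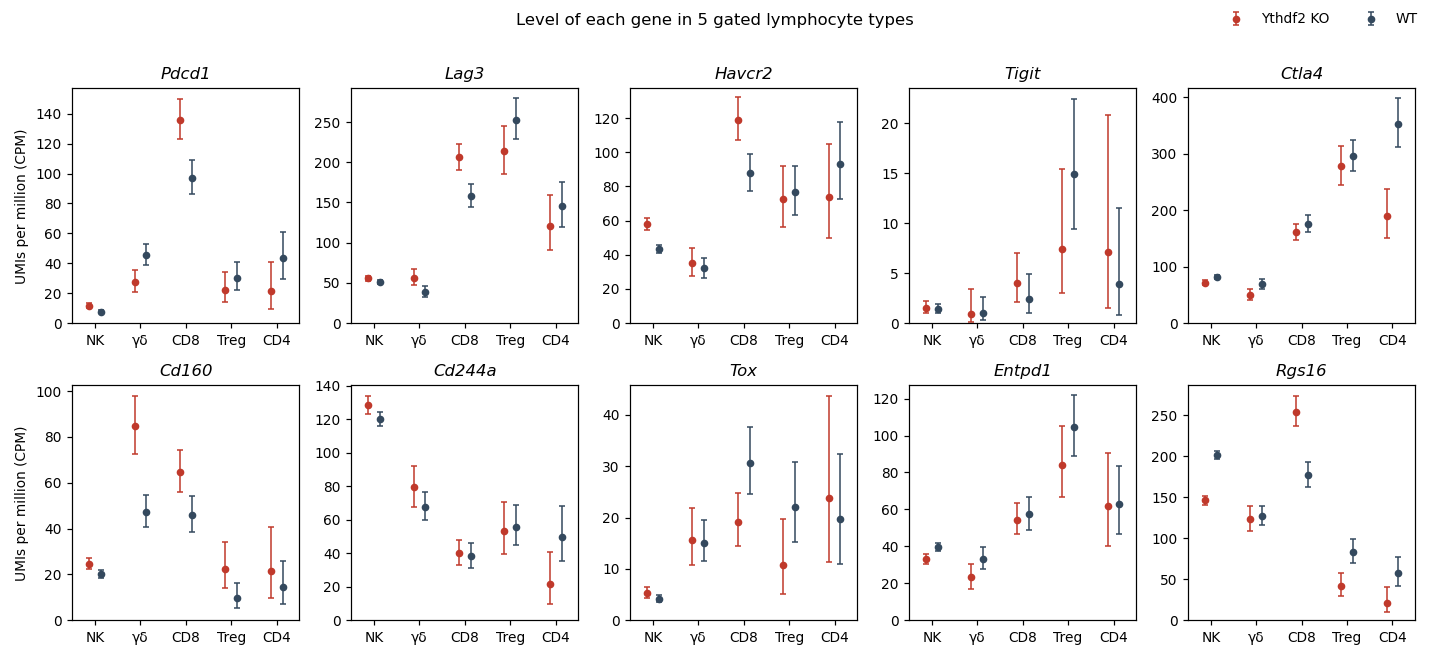
CPM of each of the 10 genes in the NK, gamma-delta T, CD8 T, regulatory T (Treg) and conventional CD4 T gates, with the Ythdf2 KO library in red on the left and the WT library in dark blue on the right of each pair; points are CPM of the summed UMIs and bars 95% Poisson counting intervals. Pdcd1 and Havcr2 peak in Ythdf2 KO CD8 T cells at 136 and 119 CPM, and Cd244a peaks in NK cells at 129 CPM in Ythdf2 KO and 120.2 CPM in WT.

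Counted over the 10459 genes tested, 4 of the 10 genes were called by edgeR between CD8 and conventional CD4 T cells, 3 higher and 1 lower, where 3.47% of all genes were called higher and 4.48% lower. Between gamma-delta and CD8 T cells 7 were called, 1 higher and 6 lower, against 2.91% and 2.71% of all genes. Between NK and CD8 T cells 8 were called, 1 higher and 7 lower, against 12.1% and 15.8%. The median log2 fold of the 10 genes was 0.29, -1.21 and -0.99 in these 3 comparisons, beside 0.00, -0.00 and -0.01 over all genes tested. The scaling by TMM moved the median of all genes between NK and CD8 T cells by 0.15 on the log2 scale from that by total UMIs. The regulatory over conventional CD4 comparison called none of the 10, against 0.182% of all genes higher and 0.325% lower. At an unadjusted p under 0.05 it counted 2 of them, Lag3 and Entpd1, and DESeq2 called 0. Lag3 came closest (log2 fold 0.78, edgeR adjusted p = 0.066), with a log2 ratio of 0.81 in Ythdf2 KO and 0.80 in WT. Leaving out CD4 cells with Il2ra or Ikzf2, which kept 14 Ythdf2 KO and 26 WT cells, made both calls, Lag3 at a log2 fold of 2.50 (edgeR adjusted p = 0.0013) and Entpd1 at 1.69 (edgeR adjusted p = 0.038). This filter acted on the CD4 side only and kept shallower cells. Their median depth was 2857.5 UMIs in Ythdf2 KO and 4128 UMIs in WT, against 6045.5 and 5998 UMIs before it. The part of this selection in the 2 calls was not tested.

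**Figure D2:**
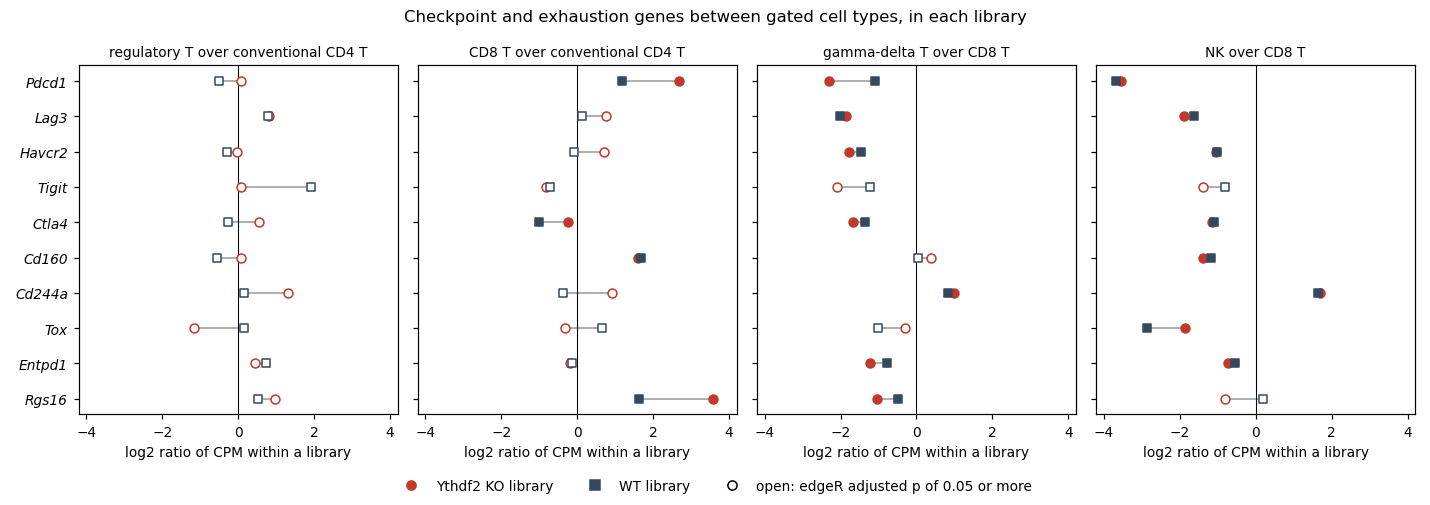
Log2 ratio of CPM between gates within each library for the 10 genes, red circles for Ythdf2 KO and dark blue squares for WT, joined by a grey line; filled symbols have an edgeR adjusted p below 0.05 and open ones do not. In the NK over CD8 T panel 7 genes are filled left of 0 and Cd244a right of it, and the regulatory over conventional CD4 panel has no filled symbol.

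Outside T and NK cells most of the 10 genes were close to absent. Lag3 had 0 UMIs in 261 Ythdf2 KO and 97 WT B cells, and Tigit, Cd160 and Tox had 0 there too. In macrophages Pdcd1 stood at 2.58 CPM in Ythdf2 KO and 2.67 CPM in WT, and Ctla4 at 3.87 and 5.27 CPM. In B cells Ctla4 stood at 10.7 CPM in Ythdf2 KO and 34.3 CPM in WT, from 7 and 10 UMIs. Havcr2, Cd244a and Entpd1 were the exceptions, since Cd244a reached 63.3 CPM in Ythdf2 KO and 60.5 CPM in WT neutrophils and 41.6 and 34.6 CPM in macrophages.

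Between the libraries, CD8 T cells of the Ythdf2 KO library carried more Pdcd1, Lag3, Havcr2, Cd160 and Rgs16 and less Tox, by factors whose counting intervals leave out 1, while Ctla4, Cd244a and Entpd1 differed by less than counting error. Of the 9 genes with at least 20 UMIs, 5 had an interval above 1 and 1 below. Among all genes with at least 20 UMIs these shares were 10.5% and 13.6%, a background not matched for counts. Intervals narrow with more UMIs, and the 5 genes had from 325 (Cd160) to 1271 UMIs (Rgs16) over both libraries. Pdcd1 had 404 UMIs in 211 Ythdf2 KO cells and 282 UMIs in 234 WT cells, a ratio of 1.40 (95% interval 1.20 to 1.64). Lag3 had 613 UMIs in Ythdf2 KO and 459 UMIs in WT, a ratio of 1.31 (1.15 to 1.48). Both receptors were therefore higher in Ythdf2 KO, but by less than the 1.5-fold used as a threshold of size. Havcr2 had 354 UMIs in Ythdf2 KO and 255 UMIs in WT (ratio 1.36, 1.15 to 1.60). For Cd160 the counts were 192 UMIs in Ythdf2 KO and 133 UMIs in WT (ratio 1.41, 1.12 to 1.77), and for Rgs16 756 and 515 UMIs (ratio 1.43, 1.28 to 1.61). Tox went the other way, with 57 UMIs in Ythdf2 KO and 89 UMIs in WT, a ratio of 0.626 (0.441 to 0.883). It was the 1 gene past 1.5-fold of the 9 with at least 20 UMIs. Of all 9923 genes with at least 20 UMIs, 10.3% were past it in the lower and 6.29% in the higher direction.

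The other CD8 ratios were 0.912 for Ctla4 (0.804 to 1.04), 1.05 for Cd244a (0.802 to 1.37) and 0.948 for Entpd1 (0.759 to 1.18). Tigit had 12 UMIs in Ythdf2 KO and 7 UMIs in WT, too few for a ratio of any precision. The median log2 ratio of the 9 genes was 0.38, beside -0.03 over all genes. The gated CD8 cells were deeper in Ythdf2 KO, with a median of 11220 UMIs per cell against 9367 in WT. Genes of other lineages took a median of 0.0614% of UMIs in Ythdf2 KO and 0.144% in WT, and Gzma, the most abundant NK gene measured, stood at 797 CPM in Ythdf2 KO and 1246 CPM in WT. With the limit on other lineages at 0.2% of UMIs the 5 higher genes had ratios from 1.19 to 1.37, and without cells holding an Ncr1 UMI from 1.23 to 1.61, in the same direction under both. When every cell had the same weight whatever its depth, the ratios of the 5 genes were 1.51 to 1.92 and that of Cd244a was 1.91, which placed 6 of the 9 past 1.5-fold higher and Tox lower, where 9.42% of all genes were past it higher and 14.9% lower under that weighting. In the other gates the same weighting placed 4.77% of all genes past 1.5-fold higher and 7.1% lower in NK cells, 7.4% and 14.8% in gamma-delta T cells, 12.8% and 17.9% in regulatory T cells, and 14.1% and 19.8% in conventional CD4 T cells.

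**Figure D3:**
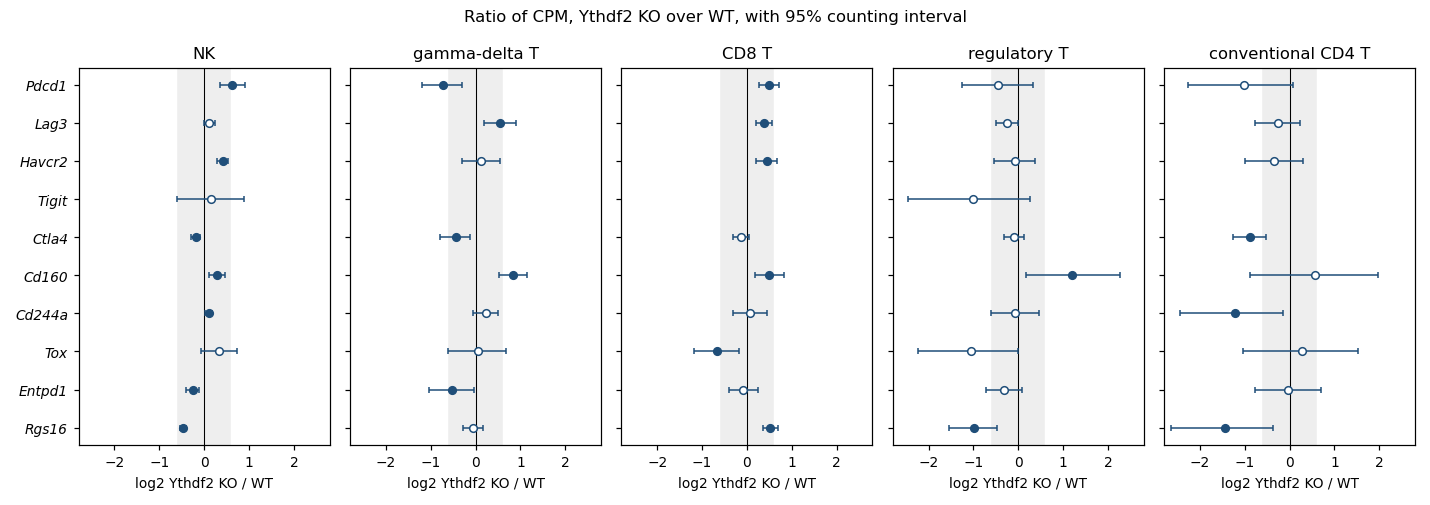
Log2 ratio of CPM, Ythdf2 KO over WT, for each gene with at least 20 UMIs in each of the 5 gates; points right of 0 are higher in Ythdf2 KO, bars are 95% counting intervals, filled points have an interval that leaves out a ratio of 1, and the grey band marks differences below 1.5-fold. In the CD8 T panel Pdcd1, Lag3, Havcr2, Cd160 and Rgs16 are filled right of 0 and Tox left of it, while intervals are widest in the conventional CD4 T panel.

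Shares of CD8 T cells with a transcript, at the cells' own depth, were higher in Ythdf2 KO for the 5 genes with higher levels there. They were also higher for Cd244a (32.2% in Ythdf2 KO, 21.8% in WT), Entpd1 (41.7% and 38.0%) and Tigit (5.21% and 2.99%), whose levels did not differ beyond counting error. Shares were lower for Ctla4 (64.0% in Ythdf2 KO, 70.1% in WT) and Tox (17.1% and 23.9%). Pdcd1 was seen in 123 of 211 Ythdf2 KO cells (58.3%) and in 101 of 234 WT cells (43.2%), with 3.28 UMIs per such cell in Ythdf2 KO and 2.79 in WT. Rgs16 was seen in 65.4% of Ythdf2 KO and 41.0% of WT cells, with 5.48 and 5.36 UMIs per such cell. Since deeper cells show more genes, cells were also thinned to 1000 UMIs each. Rgs16 was then seen in 23.8% of Ythdf2 KO cells (18.2 to 30.2) and 12.9% of WT cells (8.86 to 17.9), and Lag3 in 42 of 210 Ythdf2 KO cells (14.8% to 26.1%) and 11.2% of WT cells (7.42 to 15.9). The intervals of Rgs16 do not overlap between the libraries and those of Lag3 overlap slightly. Pdcd1 was seen in 12.9% of thinned Ythdf2 KO cells (8.65 to 18.2) and 10.3% of WT cells (6.71 to 14.9), which does not separate them. At 2000 UMIs the shares were 34.6% in Ythdf2 KO and 17.5% in WT for Rgs16, 32.2% and 18.4% for Lag3, 19.7% and 16.7% for Pdcd1, 23.6% and 28.5% for Ctla4, and 8.17% and 10.5% for Entpd1. The Tox shares at 2000 UMIs, 3.85% in Ythdf2 KO and 2.63% in WT, stood against its order by CPM and are not ranked. Ctla4 stood in opposite order at 1000 UMIs (17.1% in Ythdf2 KO, 15.9% in WT), and its shares are not ranked either. The Pdcd1 share at 1000 UMIs in B cells, measured as a background, was 0.386% in Ythdf2 KO. In WT it was 0 of 97 cells, which allows a share of up to 3.09%. Median depths of B cells before thinning were 2057 UMIs in Ythdf2 KO and 2143 UMIs in WT.

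Several of these transcripts were seen in the same CD8 T cell more often in Ythdf2 KO, with overlapping intervals. Such a share rises when single genes are seen in more cells. The mean at 2000 UMIs was 1.55 of the 10 genes per cell in Ythdf2 KO and 1.17 in WT. Whether the genes met more often than their single shares give was not tested. At 2000 UMIs per cell, 51 of 208 Ythdf2 KO CD8 T cells, or 24.5% (18.8 to 30.9), held at least 3 of the 10 genes, and 32 of 228 WT cells, or 14.0% (9.80 to 19.2), with intervals that just overlap. Cells with none of them made up 24.0% in Ythdf2 KO and 37.3% in WT. Regulatory T cells with at least 3 made up 13.8% in Ythdf2 KO and 13.3% in WT, and NK cells 5.51% and 5.53%. Gamma-delta T cells stood at 2.28% in Ythdf2 KO and 3.81% in WT, and conventional CD4 T cells at 6.67% and 11.4%. None of 137 Ythdf2 KO and 56 WT B cells held 3 of the genes. At 1000 UMIs per cell the CD8 shares were 8.10% (4.79 to 12.6) in Ythdf2 KO and 5.58% (3.004 to 9.35) in WT, whose intervals overlap widely.

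**Figure D4:**
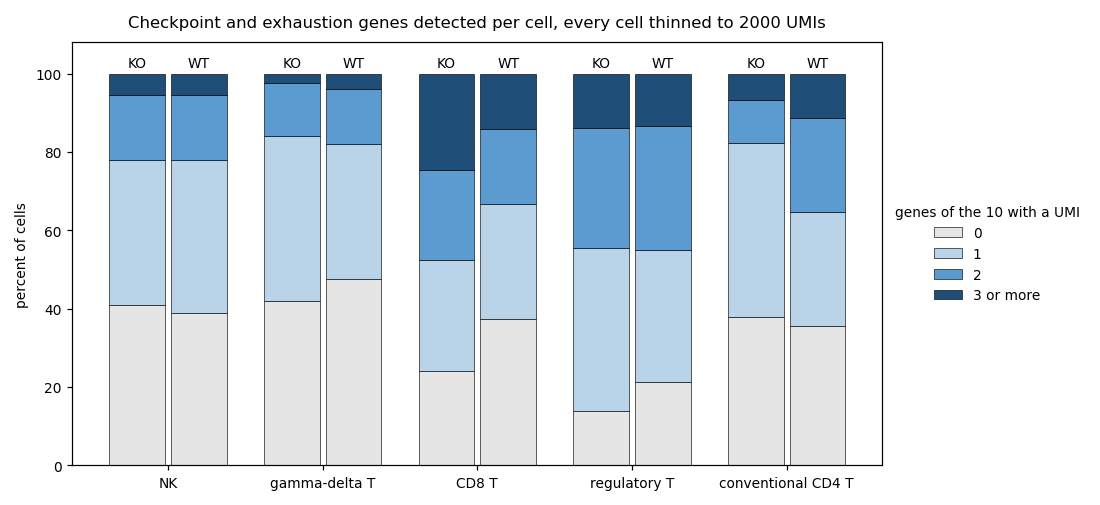
Percent of cells in each gate with 0, 1, 2 or at least 3 of the 10 genes detected, after thinning every cell to 2000 UMIs, with Ythdf2 KO bars left of WT bars. The darkest segment, at least 3 genes, is 24.5% of Ythdf2 KO and 14.0% of WT CD8 T cells, and nearly equal between the libraries in regulatory T and NK cells.

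Within CD8 T cells, transcripts of Pdcd1 and Lag3 occurred together. Lag3 was seen in 20 of 41 Ythdf2 KO cells with a Pdcd1 UMI, or 48.8% (32.9 to 64.9), and in 28.1% (21.5 to 35.6) of the 167 without one. In WT it was seen in 39.5% (24.0 to 56.6) of 38 cells with Pdcd1 and in 27 of the 190 without, or 14.2%. Ifng, the gene of interferon gamma, stood in the same order, in 58.5% of cells with Pdcd1 and 36.5% without in Ythdf2 KO, and in 19 of 38 cells with Pdcd1 and 21.6% without in WT. Ctla4 was seen beside Pdcd1 in 22.0% (10.6 to 37.6) of Ythdf2 KO cells and 55.3% (38.3 to 71.4) of WT cells, against 24.0% and 23.2% of cells without Pdcd1. Tcf7, the gene of the factor TCF-1 that keeps progenitors of exhausted cells, was seen beside Pdcd1 in 1 of 41 Ythdf2 KO cells and 2 of 38 WT cells, against 11.4% and 13.2% of cells without Pdcd1. Cells remained unequal in other ways after thinning, and cells of 1 library are not replicates, so these shares describe the 2 libraries.

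Around the 10 genes, CD8 T cells of the Ythdf2 KO library held fewer transcripts of most listed progenitor and memory genes, while late effector and tissue genes were split. Of 12 progenitor and memory genes, 11 had enough UMIs. Of these, 10 were below a ratio of 1, where 46.4% of all genes were above 1. Past 1.5-fold were 4 lower and 1 higher, against 10.3% and 6.29% of all genes. Their median log2 ratio was -0.46, beside -0.03 over all genes. Slamf6, a receptor of progenitor cells, stood at 9.41 CPM in Ythdf2 KO and 19.3 CPM in WT (ratio 0.489), Tcf7 at 30.3 and 49.5 CPM (ratio 0.611), and Ccr7, which guides cells to lymph nodes, at 114 and 188 CPM (ratio 0.608). Xcl1, a chemokine that attracts dendritic cells, stood apart at 253 CPM in Ythdf2 KO and 162 CPM in WT (ratio 1.56). Among 12 late effector and tissue genes, 2 were past 1.5-fold higher and 3 lower, against 6.29% and 10.3% of all genes. Ifng stood at 1031 CPM in Ythdf2 KO and 599 CPM in WT (ratio 1.72) and the chemokine gene Ccl3 at 647 and 414 CPM (ratio 1.56). Ccl5, another chemokine gene, stood at 1265 CPM in Ythdf2 KO and 2391 CPM in WT (ratio 0.529), Nt5e, the gene of CD73, at 8.74 and 34.1 CPM (ratio 0.257), and Cd7 at 14.8 and 23.1 CPM (ratio 0.642).

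Of the 11 other inhibitory receptors in CD8 T cells, 1 was past 1.5-fold higher and 2 lower, against 6.29% and 10.3% of all genes. Klrc1, the gene of NKG2A, stood at 209 CPM in Ythdf2 KO and 138 CPM in WT (ratio 1.52). Lair1, a collagen receptor, stood at 42.4 and 65.7 CPM (ratio 0.645), and Btla, which binds HVEM, had 7 UMIs in Ythdf2 KO and 18 UMIs in WT (ratio 0.380). The median log2 ratio of these receptors, which leave out the 10 genes, was -0.27 beside -0.03 over all genes, with 4 of the 11 above a ratio of 1, where 46.4% of all genes were. Among 13 exhaustion and activation factors, beside the same shares of all genes, 0 were past the fold higher and 1 lower. This was Eomes, a T-box factor of late CD8 T cells, at 24.9 CPM in Ythdf2 KO and 41.3 CPM in WT (ratio 0.603). Eomes is also an NK gene, and it was seen in 19.4% of Ythdf2 KO and 18.4% of WT CD8 T cells. The part of NK RNA in its CD8 values was not tested. None of 8 costimulatory receptors passed the fold, with 7 of the 8 above a ratio of 1, where 46.4% of all genes were, and of 12 signalling genes only Inpp5d, the lipid phosphatase SHIP-1, did, at 56.5 CPM in Ythdf2 KO and 85.7 CPM in WT (ratio 0.659).

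NK cells gave the most precise ratios, and most were small. Pdcd1 was the 1 gene of 10 past 1.5-fold, where 4.5% of 12710 genes were past it in the higher and 4.8% in the lower direction. It had 204 UMIs in 67 of 1390 Ythdf2 KO cells and 223 UMIs in 99 of 2286 WT cells, a ratio of 1.55 (1.27 to 1.88). The ratio was below 1.5 with every cell weighted alike (1.41) and with no limit on other lineages (1.38). The share of cells with a UMI was 4.82% in Ythdf2 KO and 4.33% in WT, with 3.04 UMIs per such cell in Ythdf2 KO and 2.25 in WT. Thinned to 1000 UMIs, the Pdcd1 share was 1.23% (0.717 to 1.96) in Ythdf2 KO and 0.964% (0.605 to 1.46) in WT. At 2000 UMIs it was 1.32% (0.786 to 2.08) and 1.43% (0.978 to 2.01). The thinned shares stood in opposite order at these depths with overlapping intervals, so no order is read from them. By the interval 4 of the 10 genes were above 1 and 3 below, against 12.3% and 15.7% of all genes. That background too was not matched for counts. Havcr2 was higher in Ythdf2 KO (ratio 1.33, 1.23 to 1.45), as were Cd160 (1.21, 1.07 to 1.38) and Cd244a (1.07, 1.02 to 1.13). Rgs16 was lower, with 2563 UMIs in Ythdf2 KO and 5977 UMIs in WT (ratio 0.725, 0.692 to 0.760), as were Entpd1 (0.836, 0.756 to 0.924) and Ctla4 (0.875, 0.817 to 0.937). The ratios of Lag3 (1.08, 0.999 to 1.18), Tox (1.25, 0.947 to 1.66) and Tigit (1.11, 0.659 to 1.85) held 1 in their intervals. The median log2 ratio of the 10 genes was 0.14, beside -0.03 over all genes. Among the listed genes the chemokine genes Ccl3 (159.95 CPM in Ythdf2 KO, 85.6 CPM in WT, ratio 1.87) and Ccl4 (799 and 469 CPM, ratio 1.70) were higher in Ythdf2 KO, as were Cd7 (14.5 and 7.72 CPM, ratio 1.88) and the inhibitory receptor Cd200r1 (4.33 and 2.83 CPM, ratio 1.53). Nt5e (5.98 CPM in Ythdf2 KO, 12.1 CPM in WT, ratio 0.495) and the costimulatory receptor Cd28 (59.7 and 90.4 CPM, ratio 0.660) were lower.

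In gamma-delta T cells 1 gene was past 1.5-fold higher and 1 lower of the 9 with enough UMIs, where 4.24% of 9947 genes were past it higher and 8.79% lower. Cd160 had 179 UMIs in 232 Ythdf2 KO cells and 185 UMIs in 413 WT cells (ratio 1.79, 1.45 to 2.21). Pdcd1 had 58 UMIs in Ythdf2 KO and 178 UMIs in WT (ratio 0.602, 0.439 to 0.813). Without cells holding an Ncr1 UMI, Cd160 kept a ratio of 1.505 and Pdcd1 moved to 0.942. With every cell weighted alike the Pdcd1 ratio was 0.962, so its place past 1.5-fold was lost under both. After thinning to 1000 UMIs Pdcd1 was seen in 8.26% (5.05 to 12.6) of Ythdf2 KO and 5.57% (3.56 to 8.24) of WT cells, and at 2000 UMIs in 9.59% (6.03 to 14.3) and 13.2% (10.02 to 16.9). The shares stood in opposite order at the 2 depths with overlapping intervals, so no order is read from them. By the interval 2 of the 9 genes were above 1 and 3 below, against 5.14% and 8.39% of all genes. Lag3 was higher in Ythdf2 KO (ratio 1.46, 1.14 to 1.86), while Ctla4 (0.734, 0.581 to 0.922) and Entpd1 (0.696, 0.490 to 0.973) were lower. Cd244a (1.17), Havcr2 (1.09), Tox (1.03) and Rgs16 (0.968) differed by less than counting error. The median log2 ratio was 0.05, beside -0.04 over all genes. Of the listed genes, Nt5e (ratio 0.377), Tnfrsf4 (0.369), Itgae (0.396), Irf4 (0.592), S1pr1 (0.595), Id3 (0.590) and Ccr7 (0.661) were lower in Ythdf2 KO, and none was past the fold higher.

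Regulatory T cells held 1 gene past 1.5-fold higher and 3 lower, where 6.41% of 8247 genes were past it higher and 10.8% lower. Rgs16 had 39 UMIs in 72 Ythdf2 KO cells and 128 UMIs in 121 WT cells, a ratio of 0.501 (0.341 to 0.722), but 0.808 with every cell weighted alike, short of 1.5-fold. Tox (10 UMIs in Ythdf2 KO, 34 UMIs in WT, ratio 0.484) and Tigit (7 and 23 UMIs, ratio 0.5004) were past the fold with intervals that reached or held 1. Under alternatives Tox reached 0.815 with cells weighted alike, and Tigit 1.24 with stricter gates. Cd160 had 21 UMIs in Ythdf2 KO and 15 UMIs in WT (ratio 2.30, 1.13 to 4.80), a value that was 0.689 with the limit on other lineages at 0.2%. By the interval 1 gene was above 1 and 1 below, against 5.48% and 6.94% of all genes. The leading receptors of this cell type differed little, with ratios of 0.938 for Ctla4 (0.802 to 1.09) and 0.843 for Lag3 (0.707 to 1.00). Pdcd1 (0.735), Havcr2 (0.948), Cd244a (0.956) and Entpd1 (0.807) held 1 in their intervals. The median log2 ratio was -0.28, beside -0.04 over all genes. Among the listed genes Xcl1 (203 CPM in Ythdf2 KO, 53.9 CPM in WT, ratio 3.76), Cd226 (20.3 and 8.44 CPM, ratio 2.40) and Ccl4 (1940.3 and 1217 CPM, ratio 1.59) were higher in Ythdf2 KO. Irf4 (ratio 0.373), Nt5e (0.465), Prdm1 (0.637) and Itgae (0.658) were lower. Xcl1 and Ccl4 are also NK genes, and Ncr1 stood at 115 CPM in Ythdf2 KO and 85.0 CPM in WT in this gate. The part of NK RNA was not tested.

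Conventional CD4 T cells were the smallest gate, with 48 Ythdf2 KO and 87 WT cells. Of 9 genes with enough UMIs, 4 were past 1.5-fold lower and none higher, where 13.7% of 6198 genes were past it lower and 8.18% higher. Ctla4 had 80 UMIs in Ythdf2 KO and 269 UMIs in WT (ratio 0.539, 0.415 to 0.695). Rgs16 had 9 and 44 UMIs (ratio 0.371, 0.159 to 0.770, but 2.31 without cells holding Il2ra or Ikzf2), Cd244a 9 and 38 UMIs (ratio 0.429, 0.183 to 0.904, but 0.940 with no limit on other lineages) and Pdcd1 9 and 33 UMIs (ratio 0.495, 0.208 to 1.06, but 0.770 without cells holding Il2ra or Ikzf2). By the interval 3 genes were below 1 and none above, against 5.78% and 4.31% of all genes. Cells with a Ctla4 UMI numbered 24 of 48 in Ythdf2 KO and 51 of 87 in WT. Thinned to 1000 UMIs the share was 29.2% (17.0 to 44.1) in Ythdf2 KO and 20.9% (12.9 to 31.0) in WT, and at 2000 UMIs 22.2% (11.2 to 37.1) and 44.3% (33.1 to 55.9), in opposite order at the 2 depths, so that these shares rank neither library above the other. The Ctla4 ratio was 1.31 with the limit on other lineages at 0.2% and 1.03 with every cell weighted alike, so its direction changed with both choices. Lag3 (0.833), Havcr2 (0.792), Entpd1 (0.982), Cd160 (1.48) and Tox (1.21) held 1 in their intervals. The median log2 ratio was -0.34, beside -0.05 over all genes. Among the listed genes Klrg1 (97.5 CPM in Ythdf2 KO, 18.4 CPM in WT, ratio 5.31), Ccl3 (ratio 2.46) and Ccl4 (ratio 2.03) were higher in Ythdf2 KO, and Lair1 (0.385), Eomes (0.408), Prf1 (0.473), Nr4a3 (0.505), Cblb (0.574), Ccr7 (0.595), Cxcr6 (0.618) and Gzmb (0.644) were lower. These include genes of NK cells, and Ncr1 stood at 102 CPM in Ythdf2 KO and 72.2 CPM in WT. The part of NK RNA was not tested.

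The genes whose level over the 10 sums of gates and libraries ran most nearly with each of the 10 were sought among 10893 genes with at least 100 UMIs, by Pearson's r of log2(CPM + 1). The 10 sums come from 2 libraries that share depth and preparation, so r is a description. For Lag3 the closest gene was Ptms (r = 0.977), which lies 1976 bases from Lag3 on the same strand of chromosome 6. For Pdcd1 it was Mpzl3 (r = 0.960), for Havcr2 Csf1 (0.913), for Tigit Ywhah (0.967) and for Ctla4 Pkm (0.968), which also led for Entpd1 (0.963). For Cd160 it was Yeats4 (0.902), for Cd244a C1qtnf6 (0.980) and for Rgs16 Abcb1b (0.971). Tox ran with Lat (0.971), Irf4 (0.950) and Sit1 (0.948), and Prdm1 stood second for Tigit (0.961).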

How the data were processed

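Leukocytes were counted in 1 Ythdf2 KO and 1 WT library. The deposited values are raw UMI counts per gene and barcode made by the authors, with no scaling. Cell Ranger is given as 5.0.1, beside Seurat 4.0.4 and mm10, per the submitters' processing notes, but as 6.1.1 per the file headers. The 10 genes and the gene lists were chosen with earlier results of these data known.

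Of all barcodes, 15844 in Ythdf2 KO and 20415 in WT had at least 200 genes and 500 UMIs with no more than 10% of them mitochondrial. T cells needed 2 UMIs of Cd3d, Cd3e and Cd3g together, and subsets at least 1 UMI of Foxp3, Trdc with a further gamma-delta UMI, Cd8b1 (or 2 of Cd8a) or Cd4. NK cells needed Ncr1 and 2 UMIs of Klr receptor genes with no Cd3d, Cd3e or Trac. Barcodes over 0.5% UMIs of 16 genes of other lineages were left out; no doublet caller was applied beyond this, and Scrublet served as an alternative. Without the limit the CD8 gate held 436 Ythdf2 KO and 515 WT cells.

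UMIs were summed per gate and library. Ratios of CPM have exact conditional binomial intervals, levels exact Poisson intervals and shares exact Clopper-Pearson intervals, all at 95% and for counting error only; for a share of 0 the limit given is 3 counts of the total. A gene past the fold was at or beyond 1.5-fold with at least 20 UMIs over both libraries. Shares of all genes between the libraries used the same minimum and were not matched for counts. Gates were compared with edgeR 4.0.16 (quasi-likelihood, TMM, Benjamini-Hochberg, threshold 0.05) with the library as a block, since each library gives every gate, and DESeq2 1.42.0 as an alternative, in R 4.3.3. Python 3.11.15, numpy 2.4.6, scipy 1.17.1 and pandas 2.3.3 were used otherwise. The ratio and edgeR steps were tested on simulated data. The text names the 10 genes in every gate, listed genes past the fold whose interval leaves out 1 (at most the 3 largest in each direction per list and gate), and the 3 genes most like each of the 10, of which some are printed. Promoters are RefSeq's, with starts within 10 bases of the annotated gene start.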

Additional observations from a re-analysis of the deposited data

Results flagged for a closer look

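Pdcd1, Rgs16 and Cd244a had CPM ratios of Ythdf2 KO over WT with counting intervals above 1 in one gate and below 1 in another. With 1 library per genotype the difference between gates was not tested. The ratio of Pdcd1, Ythdf2 KO over WT, was 1.40 in CD8 T cells and 1.55 in NK cells but 0.602 in gamma-delta T cells, where it was 0.942 without cells holding an Ncr1 UMI and 0.962 with cells weighted alike. The ratio of Rgs16 was 1.43 in CD8 T cells but 0.371 in conventional CD4 T cells (2.31 without those holding Il2ra or Ikzf2), 0.501 in regulatory T cells (0.808 with cells weighted alike) and 0.725 in NK cells. The ratio of Cd244a was 0.429 in conventional CD4 T cells, on 9 UMIs in Ythdf2 KO and 38 UMIs in WT (0.940 with no limit on other lineages), and 1.07 in NK cells.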

How the results depend on the processing

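Over 10 alternatives the CD8 T ratio of Ythdf2 KO over WT ranged from 1.30 to 1.54 for Pdcd1, 1.23 to 1.51 for Lag3, 1.28 to 1.69 for Havcr2, 1.19 to 1.68 for Cd160, 1.34 to 1.92 for Rgs16 and 0.477 to 0.653 for Tox, and over 9 alternatives the NK ratio ranged from 1.38 to 1.69 for Pdcd1 and 0.685 to 0.751 for Rgs16. The small CD4 gates set the limit: at 9 UMIs a ratio has an interval several-fold wide, and the causes of the changes below were not tested. Of the 24 ratios whose interval held 1, 16 crossed 1 under some alternative. Of the 23 whose interval left out 1, 3 did: Ctla4 in conventional CD4 T cells (1.31 with the 0.2% limit on other lineages, 1.03 with cells weighted alike), Rgs16 there (2.31 without CD4 cells holding Il2ra or Ikzf2) and Cd160 in regulatory T cells (0.689 with the 0.2% limit). Of 28 alternative values for genes seen beside Pdcd1 in CD8 T cells, 10 left the main interval. Of 900 alternative shares of cells with a UMI, 201 did. These alternatives include other depths per cell.

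The count of the 10 genes past 1.5-fold, 1 in CD8 T cells, was 7 with cells weighted alike, 4 without the 8% highest Scrublet scores, 2 with no limit on other lineages, without a minimum of UMIs or without cells holding Ncr1 (an alternative chosen after seeing the data), and 0 at 2-fold. In NK cells it was 1, and 0 with cells weighted alike, no limit or 2-fold. In gamma-delta T cells it was 2, and 5 without Ncr1 cells, 4 with cells weighted alike, 1 with no limit and 0 at 2-fold. In regulatory T cells it was 4, and 2 without Ncr1 cells or at 2-fold, and 1 with at least 50 UMIs, with cells weighted alike or with the 0.2% limit. In conventional CD4 T cells it was 4, and 2 with at least 50 UMIs or no limit, and 1 without Ncr1 cells, without Il2ra and Ikzf2 cells or with the 0.2% limit. The count of listed genes past the fold was 15 in CD8 T cells and 3 at 2-fold, 11 in NK cells and 7 with at least 50 UMIs or 4 at 2-fold, 8 in gamma-delta T cells and 3 at 2-fold, 11 in regulatory T cells and 4 at 2-fold, 7 with no limit and 21 with stricter gates, and 19 in conventional CD4 T cells and 7 at 2-fold, 10 without Il2ra and Ikzf2 cells and 12 with no limit or at least 50 UMIs.

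Between gates, edgeR without the replicate block called 2 of the 10 genes for CD8 over conventional CD4 T cells instead of 4, and the 0.2% limit also gave 2; the block changed the count of calls in the other comparisons by at most 1. For regulatory over conventional CD4 T cells the count of 0 became 1 with no filter on low counts, with no limit or without the highest Scrublet scores, and 2 without Il2ra and Ikzf2 cells. Folds that changed sign in another fit of both libraries, given as log2, were called in neither fit. For regulatory over conventional CD4 T cells these were Cd160 (1.92 without Il2ra and Ikzf2 cells, 0.37 with stricter gates), Cd244a (-0.0612, 0.2% limit), Ctla4 (-0.17, stricter gates), Havcr2 (0.0843, no limit), Pdcd1 (0.0282) and Tox (0.37) without Ncr1 cells, and Tox (0.64) without Il2ra and Ikzf2 cells. For CD8 over conventional CD4 T cells they were Entpd1 (1.00, without Il2ra and Ikzf2 cells) and Lag3 (-0.11, 0.2% limit). For NK over CD8 T cells it was Rgs16 (0.11, no limit). With 1 library left out, 8 further values changed sign, all of folds that edgeR did not call.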

Other observations

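Within the gamma-delta gate, cells with and without a Pdcd1 UMI differed in other transcripts; the genes of this paragraph and the next were chosen after their values were seen. In Ythdf2 KO the 33 gamma-delta cells with a Pdcd1 UMI held 39.0 CPM of Ncr1 and 629 CPM of Gzma, against 244 and 3296 CPM in the 199 cells without one. They held 1058 CPM of Il17a, 259 CPM of Cd163l1 and 390.2 CPM of Cxcr6, a chemokine receptor of tissue T cells, against 146, 52.8 and 53.9 CPM in cells without Pdcd1. In WT the 101 cells with a Pdcd1 UMI held 145 CPM of Ncr1 and 2946 CPM of Gzma, against 209 and 2346 CPM in the 312 cells without, and 303 CPM of Il17a, 129 CPM of Cd163l1 and 131 CPM of Cxcr6, against 135, 60.2 and 72.3 CPM. Cells with Pdcd1 thus held more of the 3 genes Il17a, Cd163l1 and Cxcr6 in both libraries, and less Gzma only in Ythdf2 KO, a difference that was not tested. Their median depth was 3637 UMIs in Ythdf2 KO and 6302 UMIs in WT, against 5557 and 5905.5 UMIs in cells without Pdcd1.

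In the NK gate, the 67 Ythdf2 KO cells with a Pdcd1 UMI held 66.8 CPM of Itga1, the integrin CD49a of tissue-resident and type 1 innate lymphoid cells, against 32.0 CPM in the 1323 cells without. The 99 WT cells with a Pdcd1 UMI held 121 CPM, against 58.7 CPM in the 2187 cells without. Gzma was lower in cells with Pdcd1, at 4233 CPM against 7327 CPM in Ythdf2 KO and at 4540 CPM against 7504 CPM in WT, and so was Trdc, at 15.6 CPM against 54.9 CPM and at 16.3 CPM against 59.7 CPM. Cells with Pdcd1 were deeper, with medians of 14214 UMIs against 10705 UMIs in Ythdf2 KO and 14739 UMIs against 11528 UMIs in WT, and the part of depth was not tested.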
